A study of Mus musculus with 8 samples.

Results

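Notch signaling genes were examined in tumor endothelial cells (TECs), the endothelial cells that line the vessels of a tumor. The genes were 10 in number: the receptors Notch1, Notch2 and Notch4, the ligands Dll1, Dll4, Jag1 and Jag2, and the target genes Hey1, Hey2 and Hes1. They were chosen by name from the 33641 gene symbols measured, and all 10 were listed in every library. RNA-seq had been performed on CD45-CD31+ cells that were FACS-sorted from microdissected lung tumors of control and endFoxf1+/- mice, with 4 libraries in each group. Tumors grew from Lewis lung carcinoma (LLC) cells, a mouse lung tumor line, placed in the left lung lobe, and were taken 21 days later. Values are TPM, a transcript abundance per unit of transcript length that sums to the same total in every library, so that levels of different genes can be compared.

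In endFoxf1+/- mice, a tamoxifen-activated Cre recombinase driven by the Pdgfb promoter removes the exon that encodes the DNA-binding domain of FOXF1 from 1 of the alleles of Foxf1, a forkhead transcription factor of lung endothelium. The genotype is Pdgfb-iCreER with Foxf1 fl/+, on a C57Bl/6 background, and the mice were young adults that had received tamoxifen. The study describes its controls as littermates carrying only Foxf1 fl/+ or only the Cre transgene, and for the LLC model as wild-type C57Bl/6 mice, and the sample labels call them control with no genotype detail. The deletion is limited to cells with an active Pdgfb promoter and leaves the other allele intact. Control libraries are named C1 to C4 here, and endFoxf1+/- libraries H1 to H4.

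Notch receptors are activated by a ligand on a neighboring cell. Proteases then cut the receptor, and its intracellular part enters the nucleus, where it joins RBPJ and the Mastermind proteins and switches on genes of the HES and HEY families, which encode transcriptional repressors. In growing vessels DLL4 and NOTCH1 restrain tip cell formation and promote arterial identity, whereas JAG1 is known to act against DLL4 in sprouting.

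FACS-sorted populations differed in their content of endothelial transcripts. The endothelial level of a library was taken as the geometric mean TPM of 20 endothelial markers, among them Pecam1 (CD31) and Cdh5. Relative to the control mean it was 86.5% to 108% in single control libraries and 106%, 107%, 5.52% and 56.3% in H1 to H4. All 20 markers in H3 were at 3.69% to 8.20% of their control means. Foxf1 was 213, 285, 296 and 331 TPM in C1 to C4 and 177, 203, 14.04 and 105 TPM in H1 to H4, so that every endFoxf1+/- library was below every control (log2 difference -1.68, exact two-sided permutation p = 0.0286, the smallest that 4 against 4 libraries can give). Without H3 the difference was -0.83 (exact permutation p = 0.0571). Relative to the endothelial markers, Foxf1 was 40.9% to 69.2% of their level in controls and 33.9%, 38.3%, 51.4% and 37.8% in H1 to H4, so that H3 lay within the control range (log2 difference -0.49, exact permutation p = 0.0571). The summed level of 6 fibroblast markers was 282%, 180%, 2220% and 491% of the control mean in H1 to H4, all above the single control libraries (58.9% to 156%), and 5 of the 6 in H3 and all 6 in H4 were above every control. The summed level of 8 myeloid markers was 102%, 69.96%, 313% and 186% in H1 to H4 (controls 58.1% to 204%), and 8 in H3 and 1 in H4 were above every control. Most of this sum was Lyz2, with 2408 of 2510 TPM in H1 and 1582 of 1731 TPM in H2. Of the 8 markers, 5 (Ptprc, Csf1r, Cd68, Itgam and Adgre1) were above every control in both H1 and H2. None was below every control in both. Of the 14964 genes tested below, 3025 were above and 627 below every control in both. The part of myeloid cells in H1 and H2 was not tested. Summed levels in the endFoxf1+/- libraries were 54.9% to 76.2% of the control mean for 8 mural markers (controls 73.2% to 128%), 53.7% to 362% for 8 lymphoid markers (controls 88.8% to 109%), 11.4% to 162% for 7 epithelial markers (controls 46.3% to 221%), 31.0% to 71.0% for 7 erythroid and platelet markers (controls 71.9% to 142%) and 13.7% to 146% for 4 lymphatic markers (controls 78.8% to 127%). None of the 20 endothelial, 6 fibroblast and 8 myeloid markers was listed at 0 in any library. In bulk RNA of sorted cells, fewer endothelial cells and less RNA per endothelial cell cannot be told apart. Results are therefore given for all 8 libraries, without H3, and without H3 and H4, and relative to the endothelial markers.

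The target genes encode repressors that carry related short peptides near the end of the protein. The peptide of HES proteins recruits the Groucho/TLE corepressors, and the variant of HEY proteins is known not to bind them. The last 60 coding bases before the stop codon are shown 5′ to 3′ for Hes1, the only member of the 10 below every control in all 4 endFoxf1+/- libraries, and for Hey2, which was not. Capitals mark the 4 codons of this peptide, which starts with tryptophan (Hes1) or tyrosine (Hey2) and ends with proline and tryptophan. The sequences are from the GENCODE vM21 transcripts on GRCm38, chr16:30067366-30067425 on the plus strand and chr10:30833739-30833798 on the minus strand, each within the last coding exon.
Hes1: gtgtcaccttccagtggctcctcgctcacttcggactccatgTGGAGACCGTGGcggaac
Hey2: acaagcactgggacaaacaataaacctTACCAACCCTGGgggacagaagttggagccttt
The marked codons begin 6 codons from the end of the coding sequence in Hes1 and 11 codons from it in Hey2.

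Promoter windows of 250 bases before and 50 after the RefSeq gene start were at hand for 8 of the 10 members, all but Hey1 and Hes1. The ligand genes Dll4 and Jag2 are shown because the balance between them is described with the ratios, and Hey2 because its window holds the letters bound by RBPJ. Capitals mark GTGGGAA, the RBPJ site, and CACGCG, a site letter string of HES and HEY proteins, each on either strand. The windows are from RefSeq on GRCm38.p6, at chr2:119325534-119325833 on the plus strand (Dll4), chr12:112929446-112929745 on the minus strand (Jag2) and chr10:30842734-30843033 on the minus strand (Hey2).
Dll4: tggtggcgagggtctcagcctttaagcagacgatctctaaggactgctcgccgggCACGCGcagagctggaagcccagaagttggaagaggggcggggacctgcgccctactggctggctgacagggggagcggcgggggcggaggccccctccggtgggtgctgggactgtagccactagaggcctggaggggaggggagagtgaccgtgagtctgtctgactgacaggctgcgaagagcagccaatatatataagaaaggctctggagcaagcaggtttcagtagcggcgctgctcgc
Jag2: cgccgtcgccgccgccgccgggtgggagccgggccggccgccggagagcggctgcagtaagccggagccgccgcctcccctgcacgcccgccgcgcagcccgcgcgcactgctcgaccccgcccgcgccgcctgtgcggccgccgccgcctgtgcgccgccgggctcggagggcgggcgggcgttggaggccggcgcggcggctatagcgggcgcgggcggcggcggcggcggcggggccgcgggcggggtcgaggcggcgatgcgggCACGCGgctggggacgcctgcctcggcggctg
Hey2: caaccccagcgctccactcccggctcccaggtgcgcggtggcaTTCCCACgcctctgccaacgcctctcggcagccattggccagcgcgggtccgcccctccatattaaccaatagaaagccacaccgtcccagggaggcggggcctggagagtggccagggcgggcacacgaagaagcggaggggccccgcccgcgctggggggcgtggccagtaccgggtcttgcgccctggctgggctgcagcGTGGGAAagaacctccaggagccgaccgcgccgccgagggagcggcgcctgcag
The RBPJ letters stood 207 bases before the start of Hey2 on the minus strand of the window and 4 bases before it on the plus strand. They occurred in 6.38% of all 32851 promoter windows of this length, and in no other member's window. CACGCG occurred in 9.27% of all windows and in those of Dll4, Jag1, Notch2, Jag2 and 1 of the windows of Dll1, which has more than 1 start. TGTTTA, the core letters of forkhead sites, occurred in 13.4% of all windows and in none of the member windows. The motifs do not overlap each other in these windows, and a match or its absence describes only the letters.

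Levels of the members in control TECs spanned a wide range. Notch1 had the highest mean at 127.5 ± 25.0 TPM (SD, n = 4), followed by Hey1 at 121 ± 55.7 TPM, Notch4 at 97.35 ± 10.3 TPM and Hes1 at 78.8 ± 6.94 TPM. The ligands Dll4 (66.9 ± 4.90 TPM) and Dll1 (63.3 ± 22.6 TPM) came next. From Notch1 to Dll1, the ranges of the 4 control libraries overlapped between neighbors in this order. Within single control libraries, Notch4 exceeded Hes1 and Hes1 exceeded Dll4 in 4 of 4, whereas Notch1 exceeded Hey1 in 3, Hey1 exceeded Notch4 in 2 and Dll4 exceeded Dll1 in 3. Below them the ranges were separate at each step, from Jag2 (26.3 ± 4.94 TPM) to Jag1 (15.04 ± 3.60 TPM), Notch2 (5.44 ± 0.950 TPM) and Hey2 (1.88 ± 0.638 TPM). Dll1 and Dll4 together made up most of the ligand transcripts, and Notch1 and Notch4 nearly all receptor transcripts: Notch2 was 1.69% to 3.28% of the summed TPM of the 3 receptors in control libraries.

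**Figure D1:**
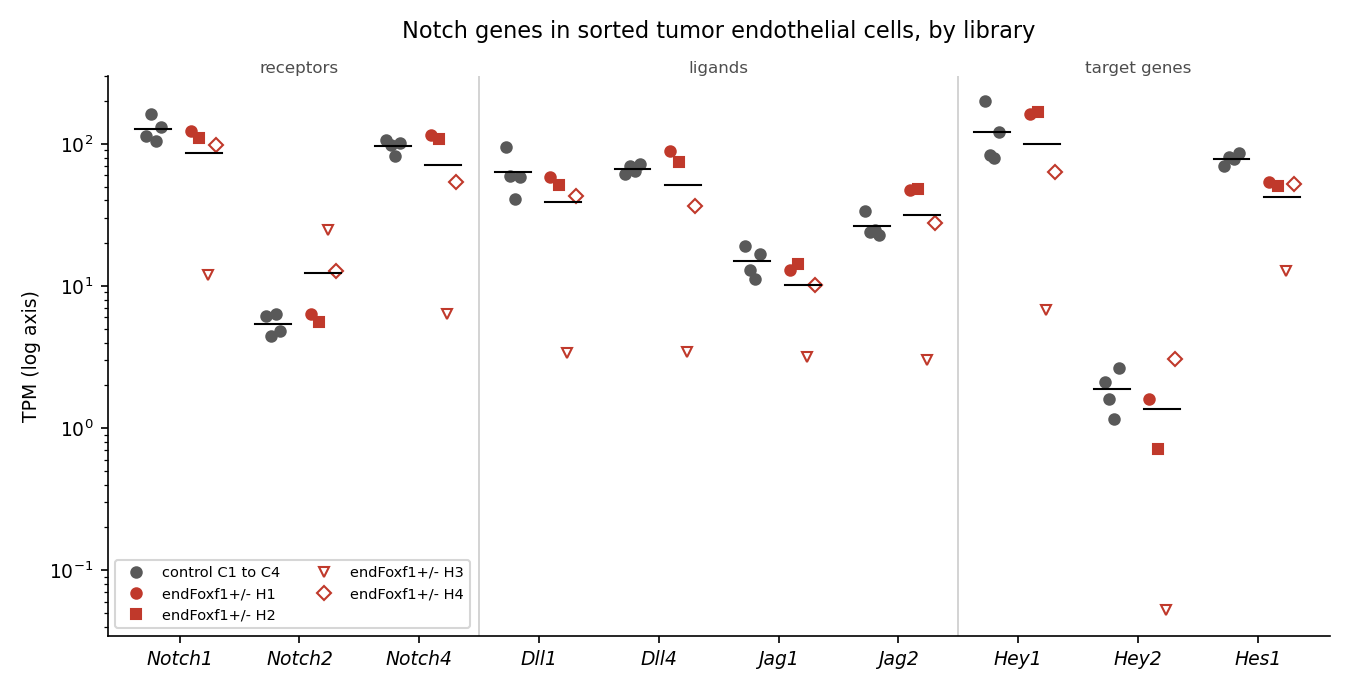
TPM (log axis) of the 10 Notch genes in each library, with gray circles for the 4 control libraries, red symbols for H1 to H4 (open for H3 and H4), and a bar at each group mean. H3 is the lowest library for every gene except Notch2, where it is the highest at 24.8 TPM, and Hes1 is the gene whose 4 red symbols all lie below the controls.

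Comparison of control and endFoxf1+/- TECs tested 14964 genes that had at least 1 TPM in at least 4 libraries, and all 10 members passed this filter. Differences were computed on the log2(TPM + 1) scale with limma, a linear model with a shared estimate of the spread, and Benjamini-Hochberg adjustment over all genes tested. No gene had an adjusted p under 0.05 (0% of genes). At an unadjusted p under 0.05, 2.82% of all genes were higher and 2.77% were lower in endFoxf1+/- libraries, and the endFoxf1+/- libraries did not overlap the controls for 2.73% (higher) and 2.31% (lower) of genes. The median difference of all genes was -0.17, and it came to -0.0077 and -0.016 after quantile normalization and median ratio scaling. Among the members, Hes1 alone had an unadjusted p under 0.05 and no overlap, both in the lower direction, which is 1 of 10. Notch2 had a higher mean log2 value and the other 9 a lower one in endFoxf1+/- libraries, with a median over the members of -0.93, although the mean TPM of Jag2 was higher (31.6 ± 21.4 TPM against 26.3 ± 4.94 TPM, SD, n = 4). Without H3 the log2 mean was lower for 7 and higher for 3, with a median of -0.12, and without H3 and H4 it was lower for 5 and higher for 5, with a median of 0.013. Under quantile normalization and median ratio scaling of all 8 libraries, each of the 10 differences kept its sign.

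Notch1, the principal endothelial Notch receptor, lies at chr2:26457903-26516663 (GRCm38, minus strand). It was 113, 161, 105 and 131 TPM in C1 to C4 and 123, 110, 11.9 and 98.0 TPM in H1 to H4. H1 and H2 were within the control range, H4 was just below it and H3 was far below. The groups differed by -0.97 on the log2 scale (SE 0.65, limma adjusted p = 0.790), and by -0.19 (SE 0.18) without H3.

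Notch4, a receptor largely restricted to endothelium (chr17:34564268-34588503, plus strand), was 106, 98.8, 82.6 and 102 TPM in control libraries and 115, 109, 6.32 and 54.0 TPM in H1 to H4. H1 and H2 exceeded every control and H3 and H4 were below every control. The log2 difference was -1.04 (SE 0.77, limma adjusted p = 0.790) over all libraries, -0.14 (SE 0.26) without H3, and 0.21 (SE 0.13) without H3 and H4, so that its sign rested on these libraries.

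Notch2, a receptor expressed in many cell types including mural and myeloid cells (chr3:98013527-98150361, plus strand), had its highest values in H3 and H4. It was 6.15, 4.47, 6.36 and 4.79 TPM in control libraries and 6.36, 5.62, 24.8 and 12.7 TPM in H1 to H4. H2 lay within the control range, H1 at its upper end, and H3 and H4, the libraries with the least endothelial signal, were the highest. Its log2 difference was 0.84 (SE 0.43, limma adjusted p = 0.790), 0.45 (SE 0.29) without H3 and 0.13 (SE 0.20) without H3 and H4. H3 and H4 also had the highest fibroblast marker levels, and H3 the highest myeloid marker level. The myeloid sum of H4 (186%) was within the control range, but 4476 of its 4604 TPM were Lyz2. Of the 8 myeloid markers, 1, Cd68, was above every control in H4 (89.8 TPM against 25.9 to 57.5 TPM), and 0 were below. The part of fibroblast and myeloid transcripts in the Notch2 values was not tested.

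Dll4, the ligand that opposes sprouting (chr2:119325784-119335962, plus strand), was 61.0, 69.6, 65.0 and 72.0 TPM in C1 to C4 and 89.4, 74.7, 3.41 and 36.3 TPM in H1 to H4. As for Notch4, H1 and H2 were above every control and H3 and H4 below. On the log2 scale the difference was -1.06 (SE 0.82, limma adjusted p = 0.797), -0.09 (SE 0.28) without H3 and 0.29 (SE 0.13) without H3 and H4.

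Dll1, a delta-like ligand also found in arterial endothelium (chr17:15367354-15376872, minus strand), was 94.8, 59.1, 41.2 and 58.0 TPM in C1 to C4 and 58.6, 51.6, 3.39 and 43.3 TPM in H1 to H4. Only H3 was outside the control range. The groups differed by -1.14 on the log2 scale (SE 0.76, limma adjusted p = 0.790), and by -0.25 (SE 0.27) without H3.

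Jag1, a ligand of endothelial and mural cells (chr2:137081456-137116644, minus strand), was 19.1, 13.1, 11.2 and 16.9 TPM in C1 to C4 and 13.1, 14.3, 3.15 and 10.1 TPM in H1 to H4. H1 and H2 were within the control range and H3 and H4 below it. The difference was -0.66 on the log2 scale (SE 0.42, limma adjusted p = 0.790), and -0.23 (SE 0.23) without H3.

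Jag2, the other jagged ligand (chr12:112907819-112929776, minus strand), had its highest values in H1 and H2. It was 33.6, 23.9, 24.8 and 22.9 TPM in C1 to C4 and 47.7, 48.2, 3.01 and 27.7 TPM in H1 to H4. H1 and H2 were above every control, H4 was within the control range despite its lower endothelial signal, and H3 was far below. Its log2 difference was -0.24 (SE 0.71, limma adjusted p = 0.932) over all libraries and changed sign to 0.60 (SE 0.24, limma unadjusted p = 0.0352, adjusted p = 0.685) without H3 and to 0.86 (SE 0.17) without H3 and H4. The range of the adjusted p over the 18 alternatives of processing was 0.0852 to 0.991.

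The share of Jag2 among ligand transcripts was larger in every endFoxf1+/- library. It was 16.1%, 14.4%, 17.4% and 13.5% of the summed TPM of the 4 ligands in C1 to C4 and 22.9%, 25.5%, 23.2% and 23.6% in H1 to H4. H3 lay with the other endFoxf1+/- libraries in this share, above every control. The shares of Dll1 (29.0% to 45.5% in controls, 26.2% to 36.9% in endFoxf1+/- libraries) and Dll4 (29.2% to 45.7% and 26.3% to 42.8%) overlapped between the groups, and so did that of Jag1 (7.85% to 9.94% and 6.26% to 24.3%). These shares are a description, and no test was run on them.

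Hes1, a basic helix-loop-helix repressor that Notch and other pathways induce (chr16:30064384-30067796, plus strand), was 69.4, 81.2, 78.7 and 85.8 TPM in C1 to C4 and 54.1, 50.2, 12.8 and 51.9 TPM in H1 to H4. All 4 endFoxf1+/- libraries were below the lowest control, and H1, H2 and H4 lay within 4 TPM of each other although their endothelial levels differed. The log2 difference was -1.07 (SE 0.43, limma unadjusted p = 0.0324, adjusted p = 0.790, exact two-sided permutation p = 0.0286), which is -0.90 relative to the median of all genes. Relative to that median, Dll1 was at -0.97, Dll4 at -0.89, Notch4 at -0.87, Notch1 at -0.80 and Hey1 at -0.73. Jag1 was at -0.49, Hey2 at -0.27, Jag2 at -0.07 and Notch2 at 1.01. Without H3 the log2 difference of Hes1 was -0.59 (SE 0.13, limma unadjusted p = 0.00202, adjusted p = 0.404), again with no overlap, as for 2.6% of all genes in the lower direction. Without H3 and H4 it was -0.58 (SE 0.13). The adjusted p ranged from 0.0634 to 0.975 over the 18 alternatives, so Hes1 did not pass the test over all genes under any of them.

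Immediate-early genes, which respond within minutes to stress such as tissue dissociation, were measured beside Hes1. Summed over 10 genes, they reached 82.1% to 107% of their control mean in single control libraries and 68.2%, 66.6%, 71.1% and 121% in H1 to H4. Without H3 and H4, all 10 had a lower mean log2 value, as had 4382 of all 14964 genes tested. Of the 10, 5 were below every control in both H1 and H2, beside 627 of all genes. In H3 and H4 the 10 genes differed in direction. In H3, 4 were below and 2 above every control, and in H4, 1 was below and 5 above, with Fos above in both (249 and 248 TPM in H3 and H4 against 68.05 to 142 TPM in controls). Jun was below every control in all endFoxf1+/- libraries (405, 406.5, 236 and 436 TPM against 517.5 to 571 TPM). The part of Jun and the other immediate-early genes in the Hes1 values was not tested.

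Hey1, a target that marks arterial endothelium (chr3:8663359-8667256, minus strand), was 200, 83.5, 79.7 and 121 TPM in C1 to C4 and 161, 169, 6.76 and 63.7 TPM in H1 to H4. The control libraries alone spanned more than the gap between H1 or H2 and the control mean. The difference was -0.90 (SE 0.88, limma adjusted p = 0.804) over all libraries and turned to 0.09 (SE 0.42) without H3.

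Hey2, its close relative (chr10:30832359-30842801, minus strand), was the least abundant member at 2.11, 1.60, 1.16 and 2.64 TPM in C1 to C4 and 1.59, 0.710, 0.0522 and 3.06 TPM in H1 to H4. H4 was the highest library and H3 the lowest, and at such levels a log2(TPM + 1) value understates any change. The log2 difference was -0.44 (SE 0.42, limma adjusted p = 0.801), and -0.11 (SE 0.34) without H3. Over the alternatives, the adjusted p of the members other than Jag2 and Hes1 ranged from 0.358 (Hey1) to 0.988 (Hey1).

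**Figure D2:**
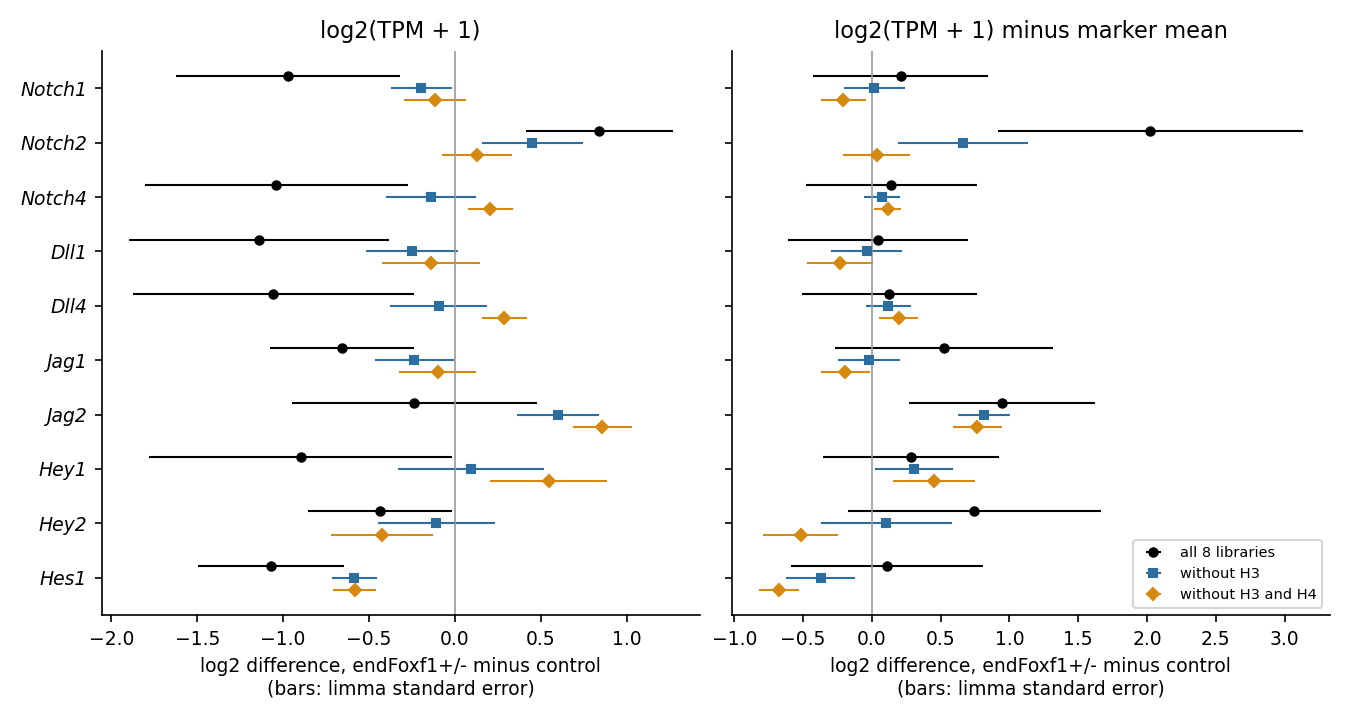
Log2 difference (endFoxf1+/- minus control) of each Notch gene with its limma standard error, from log2(TPM + 1) on the left and after subtraction of the endothelial marker mean of the same library on the right, for all 8 libraries (black), without H3 (blue) and without H3 and H4 (orange). On the left, Hes1 stays below 0 (-1.07, -0.59 and -0.58), while Jag2 moves from -0.24 to 0.60 and 0.86 and on the right lies between 0.77 and 0.95.

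Levels relative to endothelial transcripts were computed next, since 7 of the 10 members had their lowest endFoxf1+/- value in H3 and their next lowest in H4, in the order of the endothelial level. The log2(TPM + 1) of each gene was reduced by the mean log2(TPM + 1) of the 20 markers in the same library. On this scale 1 of 14964 genes, Esr1, which encodes an estrogen receptor and is no Notch gene, had an adjusted p under 0.05 (0.00668% of genes). The median difference of all genes was 1.01 on this scale, 0.22 without H3 and 0.044 without H3 and H4. The endFoxf1+/- libraries did not overlap the controls for 9.64% of genes in the higher and 0.0468% in the lower direction. All 10 members had a higher mean relative log2 value in endFoxf1+/- libraries, by 0.04 (Dll1) to 2.02 (Notch2), as had 14551 of all 14964 genes tested, and their median of 0.25 was below that of all genes. Without H3, 7 were higher and 3 were lower, with a median of 0.088 beside 0.22 for all genes.

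Jag2 was the only member that did not overlap between the groups on this scale. It was 6.45%, 4.81%, 5.79% and 4.29% of the marker level in C1 to C4 and 9.13%, 9.09%, 11.03% and 9.93% in H1 to H4. H1 to H4 lay close together although their endothelial levels ranged from 5.52% to 107% of the control mean. The log2 difference was 0.95 (SE 0.68, limma adjusted p = 0.488, exact two-sided permutation p = 0.0286). Without H3 it was 0.81 (SE 0.19, limma unadjusted p = 0.00218, adjusted p = 0.596), again with no overlap, as for 9.66% of all genes. With the marker level as a covariate instead of a subtraction, it was 0.78 (limma adjusted p = 0.532). The adjusted p over the 18 alternatives ranged from 0.225 to 0.665. Relative to the all-gene median over all 8 libraries, the difference of Jag2 was -0.07 and with H3 left out it was 0.59. With the covariate, which kept H3, the difference of 0.78 stood beside an all-gene median of 0.065.

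Notch4 was the steadiest member against the markers. It was 20.4%, 19.9%, 19.3% and 19.1% of the marker level in C1 to C4 and 22.01%, 20.6%, 23.1% and 19.4% in H1 to H4. The SD of its relative log2 value over the 8 libraries was 0.13, and 13 of the 14964 genes tested, 3 of them endothelial markers, had a smaller one. Dll4 followed with an SD of 0.16 and 31 genes below it. These ranks depended on H3, since without it the SDs of Notch4 and Dll4 were 0.070 and 0.17, with 21 and 1133 genes below them. It was 11.7%, 14.02%, 15.2% and 13.5% of the marker level in control libraries and 17.1%, 14.1%, 12.5% and 13.05% in H1 to H4, with the groups overlapping. Dll1, Notch1 and Hey1 had SDs of 0.33, 0.38 and 0.40, with 213, 282 and 310 genes below them, and 6465, 4727 and 8873 without H3.

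Notch1 was 21.7% to 32.5% of the marker level in control libraries and 23.5%, 20.7%, 43.5% and 35.2% in H1 to H4. Hes1 was 13.3%, 16.4%, 18.4% and 16.1% in controls and 10.4%, 9.48%, 46.9% and 18.6% in H1 to H4, so that H1 and H2 were below every control and H3 and H4 above. Its relative log2 difference was 0.11 (SE 0.70) with all libraries, -0.37 (SE 0.25) without H3 and -0.68 (SE 0.14, limma adjusted p = 0.304) without H3 and H4, and its sign therefore rested on H3. With the marker level as a covariate, Hes1 was lower by a log2 value of -0.51 (limma adjusted p = 0.635). Its adjusted p relative to the markers ranged from 0.246 to 0.982 over the alternatives.

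Notch2 was 0.897% to 1.49% of the marker level in control libraries and 1.22%, 1.06%, 90.7% and 4.56% in H1 to H4, with a relative log2 difference of 2.02 (SE 1.11) that came to 0.66 without H3 and 0.034 without H3 and H4. Jag1 was 2.61% to 3.66% in controls and 2.5%, 2.70%, 11.5% and 3.63% in H1 to H4. For both genes H3 lay apart from all other libraries, and the remaining endFoxf1+/- values of Jag1 were in or near the control range. Hey1 was 16.8% to 38.3% in controls and 22.9% to 31.8% in H1 to H4, entirely inside the control range. Dll1 was 9.63% to 18.2% in controls and 9.74% to 15.6% in H1 to H4, also inside it. Its log2 difference of 0.043 (SE 0.66) turned to values from -0.071 to -0.016 when C3, C4, H3 or H4 was left out, and that of Jag1 (0.53, SE 0.79) to -0.023 without H3. Hey2 was 0.271% to 0.494% in controls and 0.304%, 0.134%, 0.191% and 1.10% in H1 to H4.

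**Figure D3:**
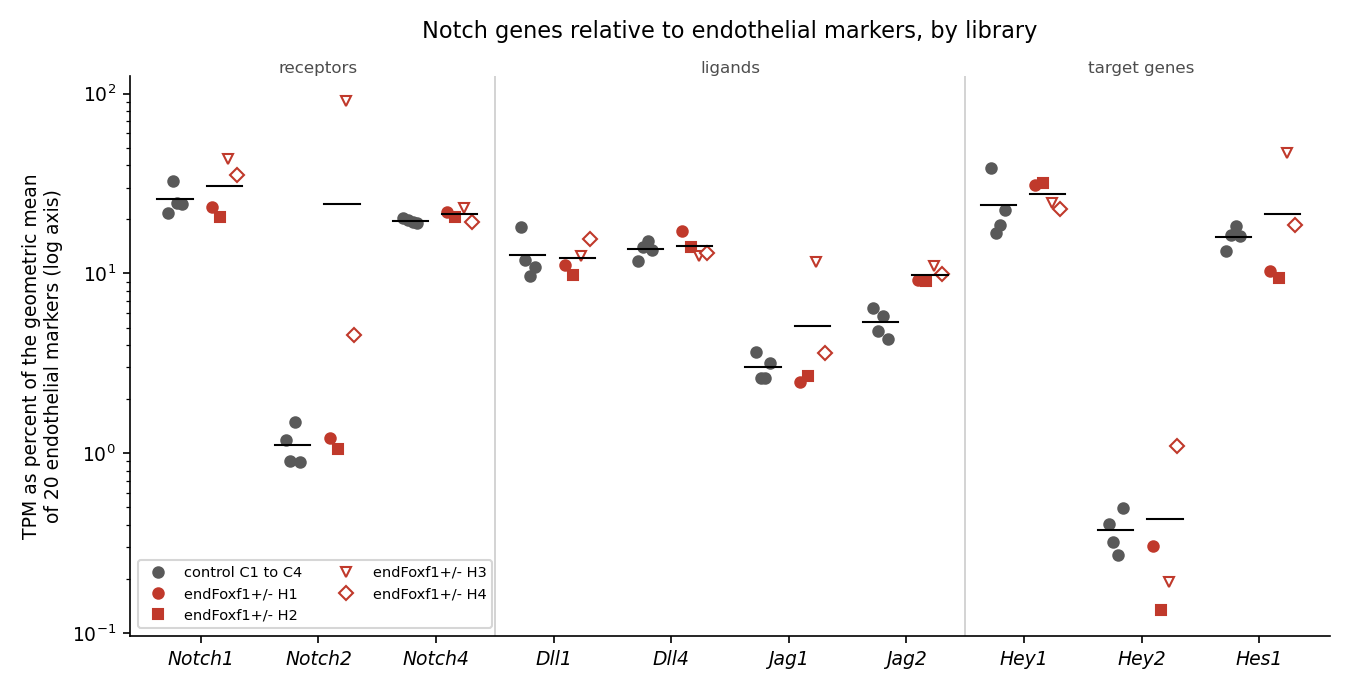
TPM of each Notch gene as a percent of the geometric mean TPM of 20 endothelial markers in the same library (log axis), with symbols as in the plot of TPM and a bar at each group mean. Notch4 lies between 19.1% and 23.1% in all 8 libraries, the 4 red Jag2 symbols lie above all controls, and Notch2 in H3 reaches 90.7%.

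H3 offers a direct view of which members followed the endothelial markers. With the 20 markers at 3.69% to 8.20% of their control means in this library, Notch4 (6.49%), Hey1 (5.60%), Dll1 (5.36%) and Dll4 (5.11%) were within the marker range, where 4.57% of all genes tested lay. Hey2 was below it at 2.78%. Notch1 was slightly above at 9.32%, followed by Jag2 (11.5%), Hes1 (16.3%) and Jag1 (21.0%), and Notch2 was at 455%. Of all genes, 93.1% lay above the marker range in H3. In H4 the markers ranged more widely, from 19.0% to 120%, and 8 of the 10 members were within this range, as were 68.2% of all genes, with Notch2 (233%) and Hey2 (163%) above it.

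**Figure D4:**
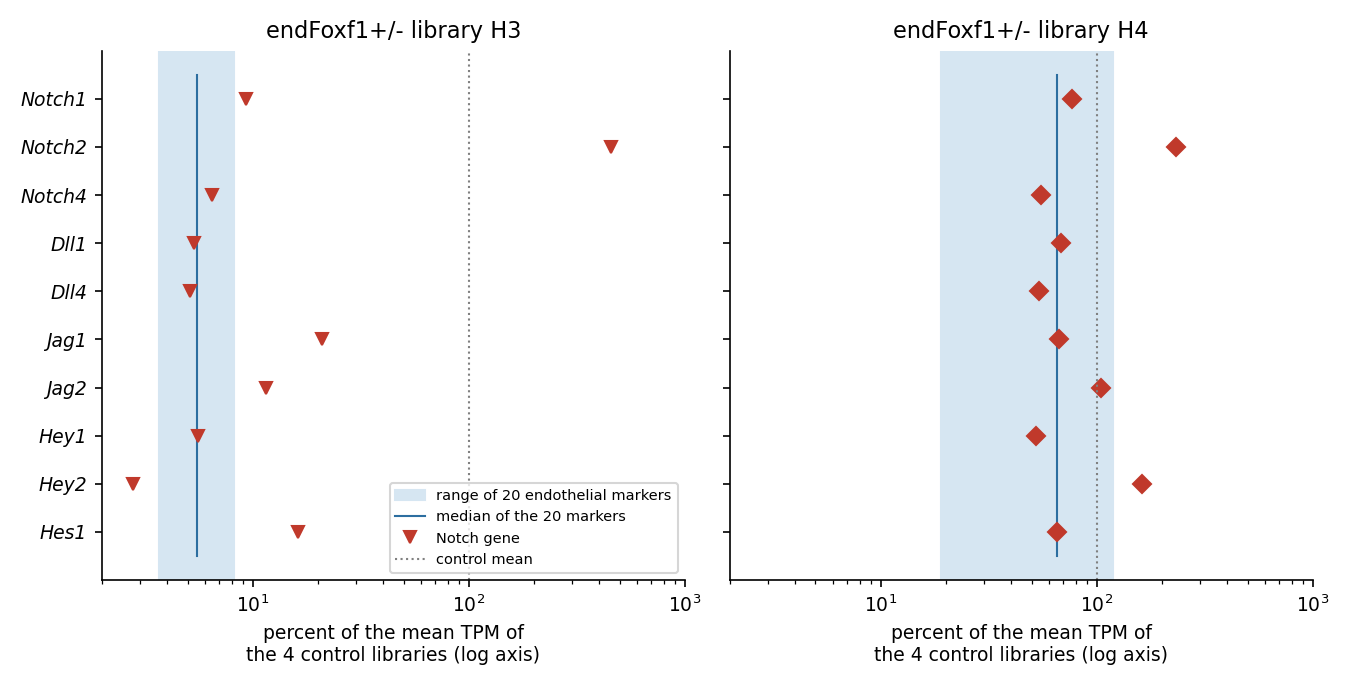
Level of each Notch gene in libraries H3 and H4 as a percent of its mean TPM in the 4 control libraries (log axis), with the range of the 20 endothelial markers shaded and their median as a line. In H3, Notch4, Dll1, Dll4 and Hey1 lie in the shaded range of 3.69% to 8.20% and Notch2 at 455%, and in H4 only Notch2 and Hey2 lie beyond the range.

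Ratios between members of the same library do not depend on how much of a library is endothelial where both genes are endothelial transcripts. In H3, Notch1 (9.32%), Jag2 (11.5%), Hes1 (16.3%) and Jag1 (21.0%) lay above the marker range, which ended at 8.20%. Each ratio below holds at least 1 of these genes, so this condition was not shown to hold for them. For 6 ratios the difference in mean log2 ratio was tested by an exact two-sided permutation test, with no adjustment over the 6. The ratio of Jag2 to Dll4 was 0.552, 0.343, 0.381 and 0.319 in C1 to C4 and 0.534, 0.645, 0.882 and 0.761 in H1 to H4. C1 reached into the endFoxf1+/- range, and the other controls were below it. The log2 difference was 0.82 (exact permutation p = 0.0571), 0.70 (exact permutation p = 0.0857) without H3, and 0.98 (exact permutation p = 0.0286) without C1, the one left-out library that brought it under 0.05.

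The other 5 ratios overlapped between the groups. Jag1 to Dll4 was 0.172 to 0.313 in controls and 0.146, 0.192, 0.923 and 0.278 in H1 to H4, with a log2 difference of 0.40 (exact permutation p = 0.657) that turned to -0.14 without H3. Hes1 to Notch1 was 0.504 to 0.751 in controls and 0.440, 0.458, 1.08 and 0.529 in H1 to H4, with a difference of -0.10 (exact permutation p = 0.8286), and -0.39 (exact permutation p = 0.0857) without H3. Differences were -0.09 for Dll4 to Notch1, -0.07 for Notch4 to Notch1 and 0.07 for Hey1 to Notch1 (exact permutation p of 0.8286, 0.8 and 0.914). For Dll4 to Notch1, H1 (0.727) and H2 (0.681) were above every control and H3 (0.2875) and H4 (0.371) below. These last 3 differences and that of Hes1 to Notch1 changed sign when single libraries were left out: Dll4 to Notch1 was 0.10 without H3 and 0.054 without H4, Notch4 to Notch1 was 0.024, 0.055 and 0.066 without C1, H3 and H4, Hey1 to Notch1 was -0.085, -0.16, -0.19 and -0.0049 without H1, H2, C2 and C3, and Hes1 to Notch1 was 0.033 and 0.014 without H1 and H2.

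**Figure D5:**
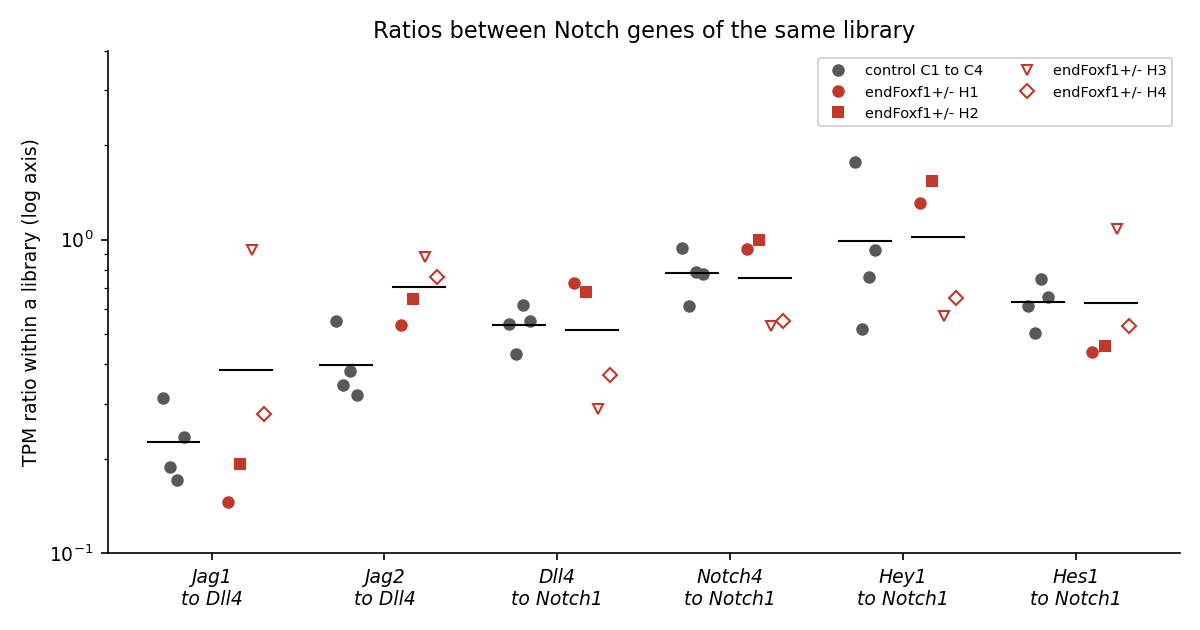
TPM ratio between pairs of Notch genes within each library (log axis), with symbols as in the plot of TPM and a bar at each group mean. For Jag2 to Dll4, H1 to H4 lie at 0.534 to 0.882 and 3 of the 4 controls at 0.319 to 0.381, and for the other pairs the groups overlap.

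Further genes of the pathway were described from lists by role, with 66 genes, of which 58 passed the filter. None had an adjusted p under 0.05 on either scale. On the log2(TPM + 1) scale, 2 were higher and 3 lower at an unadjusted limma p under 0.05, and 3 were higher and 3 lower with no overlap between the groups. The median difference was -0.34, and 0.019 without H3. Relative to the markers 8 of the 58 did not overlap in the higher direction, beside the 9.64% of all genes given above, and none in the lower. The direction counts of the lists below are to be read against those of all 14964 genes tested, of which 4782 had a higher mean log2 value with all libraries, 7740 without H3, 10582 without H3 and H4, and 14551 relative to the markers.

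Among other receptors and ligands, 2 of 6 passed the filter. Notch3, the receptor of pericytes and smooth muscle and also 1 of the 8 mural markers, was 1.18 to 1.78 TPM in control libraries and 1.02, 0.662, 0.107 and 1.27 TPM in H1 to H4 (log2 difference -0.55, SE 0.29, limma adjusted p = 0.790). Dll3, an intracellular ligand without activating function, was at 0.192 to 1.60 TPM over all libraries and was not tested. Mfap5, a matrix protein that binds Notch, was the other gene tested.

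Genes for cleavage of the receptor include proteases and other subunits of gamma-secretase. All 10 were tested, 5 with a higher and 5 with a lower mean log2 value. The counts were 6 and 4 without H3, 7 and 3 without H3 and H4, and 9 and 1 relative to the markers. Aph1c was under 1 TPM in C1, H1 and H4 (0.478, 0.894 and 0.533 TPM), and Aph1b in H4 (0.661 TPM). Psen2, a catalytic subunit of gamma-secretase, was 34.4, 22.5, 15.2 and 14.8 TPM in C1 to C4 and 13.7, 10.9, 6.65 and 5.04 TPM in H1 to H4. All endFoxf1+/- libraries were below the controls, with a log2 difference of -1.18 (SE 0.37, limma unadjusted p = 0.0108, adjusted p = 0.790). It was -1.08 without H3 and -0.70 (SE 0.33, limma unadjusted p = 0.0648) without H3 and H4. Psenen, another subunit of the complex, was 128 to 154 TPM in controls and 155 to 221 TPM in endFoxf1+/- libraries, also without overlap but higher (log2 difference 0.34, SE 0.21, limma unadjusted p = 0.128). Adam17, a sheddase, did not overlap relative to the markers (log2 difference 1.58, SE 0.83, limma adjusted p = 0.488), and without H3 it was 40.2 to 47.1 TPM in endFoxf1+/- libraries against 26.7 to 35.9 TPM in controls.

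Of the 5 genes for glycosylation of Notch, 4 had a lower and 1 a higher mean log2 value. Without H3, 3 were lower and 2 higher, and without H3 and H4, or relative to the markers, 1 was lower and 4 were higher. Poglut1, which adds glucose to the receptor, did not overlap relative to the markers (log2 difference 1.27, SE 0.77, limma adjusted p = 0.488). The Fringe gene Mfng, at 90.6 to 122 TPM in control libraries the most abundant of the 5, was 104, 122, 6.89 and 41.6 TPM in H1 to H4, the order of the endothelial level.

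Of 15 genes for ubiquitin ligases and endocytosis, 14 were tested, 6 with a higher and 8 with a lower mean log2 value. The counts were 9 and 5 without H3, 11 and 3 without H3 and H4, and 14 and 0 relative to the markers. Neurl1a, a ligase that promotes ligand uptake, was 1.63 to 2.22 TPM in controls and 0.594 to 1.08 TPM in endFoxf1+/- libraries with no overlap (log2 difference -0.61, SE 0.24, limma unadjusted p = 0.0318, adjusted p = 0.790), and -0.52 without H3. Its relative Neurl1b did not overlap in the other direction relative to the markers (log2 difference 1.17, SE 0.84, limma adjusted p = 0.488). Dtx1, of the Deltex family, was 0.447 to 0.956 TPM in controls and 0.873 to 1.53 TPM in endFoxf1+/- libraries and did not pass the filter.

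Nuclear components gave 3 genes with a higher and 8 with a lower mean log2 value among 11. The counts were 5 and 6 without H3, 8 and 3 without H3 and H4, and 11 and 0 relative to the markers. Rbpj, the DNA-binding partner of cleaved Notch, was 23.5, 26.1, 21.0 and 26.9 TPM in C1 to C4 and 32.9, 32.0, 78.3 and 27.0 TPM in H1 to H4. All endFoxf1+/- values were above the controls, H4 by under 1 TPM, and H3, where fibroblast and myeloid markers were highest too, was the highest by far. The part of these was not tested. The log2 difference was 0.65 (SE 0.33, limma adjusted p = 0.790), and 0.32 (SE 0.16) without H3. Ctbp1, a corepressor, was lower without overlap at 20.6 to 42.5 TPM against 44.2 to 48.8 TPM (log2 difference -0.47, SE 0.25, limma unadjusted p = 0.0937).

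Of 7 other target genes, 4 were tested and all 4 had a lower mean log2 value, but without H3, and without H3 and H4, 2 were higher and 2 lower, and relative to the markers all 4 were higher. Heyl was 1.31 to 2.63 TPM in controls and 2.18, 0.993, 0.130 and 0.384 TPM in H1 to H4 (log2 difference -0.70, SE 0.37, limma adjusted p = 0.790). Hes6 had a log2 difference of -0.92 (SE 0.40, limma unadjusted p = 0.0478), with H1, H3 and H4 below every control. Nrarp, a feedback inhibitor induced by Notch, was 15.3 to 26.0 TPM in controls and 34.2, 25.1, 1.85 and 28.5 TPM in H1 to H4, and H1 and H4 exceeded every control. Relative to the markers and without H3, Nrarp was higher by a log2 value of 0.65 (SE 0.28, limma unadjusted p = 0.0467, adjusted p = 0.596). Hes5, a classical target outside endothelium, was listed at 0 in 6 of 8 libraries and did not exceed 0.378 TPM.

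Arterial and venous genes were compared because Notch promotes arterial identity. Of 8 arterial genes, 2 had a higher and 6 a lower mean log2 value, with a median difference of -0.95 beside -1.19 for the 20 endothelial markers. Without H3, 4 were higher and 4 lower (median -0.098), without H3 and H4, 6 were higher and 2 lower (median 0.37), and relative to the markers 6 were higher and 2 lower (median 0.23). Cxcr4, a chemokine receptor of arterial and tip cells, was 15.9 to 22.7 TPM in controls and 32.6, 30.4, 20.6 and 51.4 TPM in H1 to H4 (log2 difference 0.70, SE 0.29, limma unadjusted p = 0.0377, adjusted p = 0.790), and H3 was the one library within the control range. In H3, Cxcr4 was at 106% of its control mean, where the endothelial level was 5.52%. The part of non-endothelial cells in the Cxcr4 values was not tested. Efnb2, the arterial ephrin ligand, was 137 to 160 TPM in controls and 198, 178, 13.2 and 98.7 TPM in H1 to H4. Relative to the markers it did not overlap, by a log2 difference of 0.33 (SE 0.62, limma adjusted p = 0.662). Unc5b, a guidance receptor of arterial and tip cells, was 27.3 to 29.8 TPM in controls and 51.5, 32.2, 21.2 and 41.6 TPM in H1 to H4, with a log2 difference of 0.28 (SE 0.28, limma adjusted p = 0.804), and 0.51 (SE 0.18, limma unadjusted p = 0.0198, adjusted p = 0.621) without H3. It too stayed above the endothelial level in H3, at 74.6% of its control mean.

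Of 4 genes listed as venous, which include Aplnr, a gene the study uses as a marker of lung general capillary cells, 2 had a higher and 2 a lower mean log2 value. Without H3, 3 were higher and 1 lower, and without H3 and H4, or relative to the markers, all 4 were higher. Nrp2, a semaphorin and VEGF-C receptor of veins and lymphatics, was 11.1 to 19.9 TPM in controls and 28.8, 22.6, 84.7 and 38.4 TPM in H1 to H4. It did not overlap, with a log2 difference of 1.25 (SE 0.39, limma unadjusted p = 0.0107, adjusted p = 0.790), and 0.88 (SE 0.25) without H3. Nrp2 was highest in H3, where fibroblast and myeloid markers were highest too, and the part of these was not tested. Aplnr, the apelin receptor, was 46.8 to 81.2 TPM in controls and 115, 134, 6.18 and 50.2 TPM in H1 to H4, and did not overlap relative to the markers (log2 difference 0.83, SE 0.64, limma adjusted p = 0.488).

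Genes with the most similar pattern over the 8 libraries were listed for 4 members, by the root-mean-square difference between log2(TPM + 1) profiles centered on their own means, out of all 14964 genes. For Dll4 they were Rapgef3 (0.11), Tmem47 (0.12) and Mid2 (0.13). For Notch4 they were Sgce (0.086), Nostrin (0.11) and Card10 (0.12), and for Notch1 C130074G19Rik (0.12), Fmo4 (0.14) and Lmo2 (0.15). For Hey1 the nearest genes were less close, with Mamstr (0.19), Dysf (0.20) and Heg1 (0.21). These 8 values include the low H3 value of each gene, which all of these profiles share.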

How the data were processed

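For each library the authors deposited TPM per gene symbol. The submitters' processing notes name TopHat, Cufflinks, Subread and DESeq2 and GRCm38 (mm10), without roles or versions. The Nextera XT kit does not mark strand, so reads of Notch1, Notch4, Dll1 and Dll4 cannot be told apart from those of overlapping genes on the other strand. Read depth cannot be had from TPM, and no counting error or floor was computed. Groups came from the genotype in the labels, and libraries were numbered in accession order. The labels do not say which animals the libraries came from, so p-values measure the spread between these samples. No library pair held identical values.

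TPM were tested as log2(TPM + 1) in R 4.3.3 with limma 3.58.1 (eBayes with an intensity trend). Genes needed 1 TPM in 4 libraries, and Benjamini-Hochberg values were called under 0.05. Single values were tested over all 70 assignments of libraries to groups (exact, two-sided). The DESeq2 test of the study needs read counts and was not repeated. Relative values subtract the mean log2(TPM + 1) of 20 endothelial markers, and percents use their geometric mean TPM. The fit was tested on simulated data. Alternatives were other pseudocounts, filters, scalings and weights, no trend, another marker reference or a covariate, left-out libraries, and libraries 1, 2 and 4 of each group, the numbers that the study's source data name, whose order may differ from accession order. Leaving out H3 and H4 together was chosen after seeing the data.

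Named genes were the members, Foxf1, Notch3, Dll3, Rbpj, Heyl, Hes5 and Nrarp, other listed pathway genes with an unadjusted p under 0.05 or no overlap on either scale, and markers that moved with a result. Mfng, Mfap5, Unc5b and Esr1 were chosen after their values were seen. The members and lists were chosen with earlier results of these data known. Gene coordinates are from GENCODE vM21. Some marker values and sequences are not reported here.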

Additional observations from a re-analysis of the deposited data

Results flagged for a closer look

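Among 56 sets of 4 values, which include the TPM, marker percents and ratios of the members in each group, 6 had 1 library far from the other 3 by Dixon's test at the 95% level, which flags about 1 in 20 sets by chance. Of these, 5 concern H3, the library with endothelial markers at 5.52% of the control mean. Hes1 was 12.8 TPM in H3 against 50.2 to 54.1 TPM in the other endFoxf1+/- libraries. Notch2 in H3 was 90.7% of the endothelial marker level against 1.06% to 4.56%, and Jag1 was 11.5% against 2.5% to 3.63%. The ratio of Jag1 to Dll4 in H3 was 0.923 against 0.146 to 0.278, and that of Hes1 to Notch1 was 1.08 against 0.440 to 0.529. The remaining value was Jag2 in the control library C1, 33.6 TPM against 22.9 to 24.8 TPM in the other controls. What these values share beyond the library was not tested.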

How the results depend on the processing

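Of 179 values of the members on the log2(TPM + 1) scale under the alternatives, 168 kept their direction and 11 reversed, and no member had an adjusted p under 0.05 under any of them. Relative to the markers 152 of 179 kept their direction and 27 reversed, and of 72 ratio values 52 kept it and stayed on the same side of the threshold, 19 reversed and 1 passed the threshold. The cause was not tested. The number of genes called over all libraries was 0, and 148 with array weights, 1 with libraries 1, 2 and 4 of each group, 3 without H3 and H4, and 0 to 1 with single libraries left out (1 without C1 and 1 without H3). Relative to the markers it was 1, and 9 with a pseudocount of 5, 16 with no filter, 11 with array weights, 2 without H3 and H4, and 1 to 2 with single libraries left out (2 without C1 and 2 without H2). The estimation of array weights for the relative values stopped before it converged. With single libraries left out, the log2 difference ranged from -0.60 to 0.60 for Jag2 and from -1.39 to 0.093 for Hey1. Relative to the markers it ranged from -0.071 to 0.23 for Dll1, -0.023 to 0.78 for Jag1 and -0.37 to 0.39 for Hes1. For the ratios it ranged from -0.14 to 0.72 (Jag1 to Dll4), 0.70 to 0.98 (Jag2 to Dll4), -0.26 to 0.10 (Dll4 to Notch1), -0.21 to 0.066 (Notch4 to Notch1), -0.19 to 0.40 (Hey1 to Notch1) and -0.39 to 0.033 (Hes1 to Notch1). With array weights, the lowest of which were 0.0643 (H3) and 0.178 (H4) for log2(TPM + 1) and 0.0149 (H3), 0.224 (H1) and 0.2497 (H4) for relative values, reversed values were 0.14 (Notch4), 0.23 (Dll4), 0.85 (Jag2) and 0.56 (Hey1), and relative to the markers -0.32 (Notch1), -0.27 (Dll1), -0.077 (Jag1), -0.63 (Hey2) and -0.68 (Hes1). Without H3 and H4 they were 0.21 (Notch4), 0.29 (Dll4), 0.86 (Jag2) and 0.55 (Hey1), relative to the markers -0.21 (Notch1), -0.23 (Dll1), -0.19 (Jag1), -0.52 (Hey2) and -0.68 (Hes1), and for ratios -0.39 (Jag1 to Dll4), 0.40 (Dll4 to Notch1) and 0.32 (Notch4 to Notch1). With libraries 1, 2 and 4 they were 0.58 (Jag2), relative to the markers -0.0016 (Notch1), -0.15 (Dll1), -0.079 (Jag1) and -0.30 (Hes1), and for ratios -0.25 (Jag1 to Dll4), 0.17 (Dll4 to Notch1) and 0.066 (Notch4 to Notch1). With the marker level as a covariate they were -0.054 (Notch1), -0.076 (Dll1), -0.13 (Jag1), -0.10 (Hey2) and -0.51 (Hes1). A pseudocount of 0.1 gave -0.018 for Dll1 relative to the markers, Pecam1 and Cdh5 as the reference gave -0.024 for it, and a pseudocount of 5 gave 0.045 for Dll4 to Notch1. Hey2 has no value with a filter of 5 TPM. No paired analysis was possible because the labels give no replicate numbers shared between the groups. Depth is unknown, and with 4 libraries a group and H3 far from the rest, differences of the size seen for most members could not be separated from the spread.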
